A study of Mus musculus with 14 samples.

Results

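The genes described here are 6 cytotoxic effector and interferon-gamma genes, Gzmb, Gzmd, Prf1, Nkg7, Xcl1 and Ifng, taken by their symbols from the 12924 genes of both deposited tables, and all 6 were found. They were followed through 14 RNA sequencing libraries of tumors that Lewis lung carcinoma cells (LLC, a carcinoma line from mouse lung) had formed in the flanks of C57BL/6 mice and taken on day 14. The hosts were p110g-/- mice, which lack the gamma catalytic subunit of PI3-kinase encoded by Pik3cg, or wild type (WT) mice. RNA came from whole tumor tissue (3 p110g-/- and 3 WT libraries) or from CD11b+Gr1- cells sorted by flow cytometry, called tumor-associated macrophages (TAM) in the labels (4 p110g-/- and 4 WT libraries). The inoculated cells were the same line in both hosts, so the genotype is that of the host. The labels do not tie libraries to single animals, so p-values reflect the spread among these samples only, part of which may be technical.

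Killer lymphocytes, that is CD8 T cells and natural killer (NK) cells, store granzymes and perforin in secretory granules. On contact with a target, perforin opens the target's membrane and granzymes, which are serine proteases, enter and trigger cell death. The same cells secrete interferon-gamma, the cytokine that makes macrophages and tumor cells present antigen and release CXCR3 chemokines, and XCL1, the chemokine that attracts cross-presenting dendritic cells through the receptor XCR1. Of the genes followed, Prf1 encodes perforin, Gzmb the main death-inducing granzyme, Gzmd a granzyme found in rodents, Nkg7 a granule membrane protein needed for efficient degranulation, Xcl1 the chemokine and Ifng interferon-gamma.

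The start sites of 3 of these genes are shown because their RNA carries the killing and interferon readouts. Each sequence is the RefSeq promoter window on GRCm38.p6, from 250 bases before to 50 after the start of the gene, 5′ to 3′ on the gene's strand. Capitals mark the motifs found, none of which overlap in the windows printed. All motifs were sought on both strands. The RUNX motif was spelled TGTGGT. For T-box factors the core GGTGTG was used. The AP-1 motif was spelled TGANTCA. STAT factors were represented by TTCNNNGAA. The cyclic AMP response element (CRE) was TGACGTCA, and the TATA box was TATAAA.
Gzmb chr14:56262285-56262584 (-): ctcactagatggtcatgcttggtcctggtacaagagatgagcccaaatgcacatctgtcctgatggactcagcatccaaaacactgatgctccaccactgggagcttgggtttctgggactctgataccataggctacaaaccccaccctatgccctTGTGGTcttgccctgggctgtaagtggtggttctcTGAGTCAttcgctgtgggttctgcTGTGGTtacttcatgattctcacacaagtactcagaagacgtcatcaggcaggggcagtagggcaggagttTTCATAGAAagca
Prf1 chr10:61297586-61297885 (+): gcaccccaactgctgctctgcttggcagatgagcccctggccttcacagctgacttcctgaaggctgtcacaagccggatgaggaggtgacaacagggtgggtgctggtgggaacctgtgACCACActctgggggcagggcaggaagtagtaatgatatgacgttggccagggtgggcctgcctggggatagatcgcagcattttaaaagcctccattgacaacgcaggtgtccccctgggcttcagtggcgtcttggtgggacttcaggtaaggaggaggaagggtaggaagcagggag
Ifng chr10:118440796-118441095 (+): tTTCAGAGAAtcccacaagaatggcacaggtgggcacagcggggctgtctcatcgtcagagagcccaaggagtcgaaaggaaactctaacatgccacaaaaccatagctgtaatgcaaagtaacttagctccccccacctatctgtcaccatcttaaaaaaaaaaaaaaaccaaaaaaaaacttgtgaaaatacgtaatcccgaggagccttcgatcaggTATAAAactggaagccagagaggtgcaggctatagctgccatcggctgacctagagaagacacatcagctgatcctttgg

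The Gzmb window held a RUNX motif beginning 93 and another beginning 34 bases before the start, an AP-1 motif between them and a STAT motif after the start. The Prf1 window held a single RUNX motif, and the Ifng window a STAT motif at its far end and a TATA box beginning 30 bases before the start. Nkg7 and Xcl1 held T-box core and RUNX motifs, and Nkg7 also a STAT motif. These letters are common. RUNX motifs stood in 16.8% of 32851 promoter windows, T-box cores in 19%, TATA boxes in 13.6%, STAT motifs in 8.3%, AP-1 motifs in 7.81% and CREs in 1.79%. A match is a description of the sequence only.

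Gzmd lies in a tandem granzyme cluster on chromosome 14, in the reference order Gzme, Gzmd, Gzmg, Gzmn, Gzmf, Gzmc and Gzmb (Gzmn was not analysed here). A stretch of 90 bases is printed for 5 of these genes because it shows how alike the copies are. Capitals mark the RUNX motif and the CRE.
Gzmc chr14:56234696-56234785 (-): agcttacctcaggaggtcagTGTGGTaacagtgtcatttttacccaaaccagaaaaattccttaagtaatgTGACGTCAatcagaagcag
Gzmd chr14:56132636-56132725 (-): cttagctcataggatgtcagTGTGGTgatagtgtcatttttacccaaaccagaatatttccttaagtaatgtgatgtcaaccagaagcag
Gzme chr14:56120669-56120758 (-): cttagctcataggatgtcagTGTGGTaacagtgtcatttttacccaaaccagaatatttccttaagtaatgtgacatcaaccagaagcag
Gzmf chr14:56211471-56211560 (-): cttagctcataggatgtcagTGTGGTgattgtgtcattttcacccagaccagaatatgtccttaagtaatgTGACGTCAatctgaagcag
Gzmg chr14:56159638-56159727 (-): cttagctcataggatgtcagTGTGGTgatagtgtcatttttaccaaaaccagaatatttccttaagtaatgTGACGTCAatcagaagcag

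The RUNX letters were present in all 5 stretches, while the CRE was complete in Gzmc, Gzmf and Gzmg and interrupted in Gzmd and Gzme. Gzmd and Gzme promoter windows were 93.4% identical and their transcripts 90%, whereas the Gzmb transcript was 45.4% to 47.5% identical to the others. Of the stretches of 36 bases in the Gzmd transcript, 33.05% also occurred in another gene (Gzme, Gzmg and Gzmf), against 0.999% for Gzmb. The sources used here do not give how reads that fit several of these genes were counted, so the values of Gzmc to Gzmg taken one by one are uncertain, and sums over Gzmd to Gzmg and over Gzmb to Gzmg are given as well. Of the Ifng stretches, 15.77% also occur, in the same orientation, in Gm49751 of the reference annotation, and reads of these stretches fit both genes. The shares of Prf1, Nkg7 and Xcl1 were 0.041%, 0% and 0%.

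Values are normalized counts, whole numbers that the authors scaled per library. Depth, as estimated from the values, was 32.1 to 43.4 M reads in p110g-/- tumors, 41.5 to 44.6 M in WT tumors, 19.7 to 40.2 M in p110g-/- TAM and 26.8 to 40.7 M in WT TAM. A count of 3 reads, the floor for a value of 0, is worth 1.79 to 5.81 normalized counts and covers counting error only. Pik3cg RNA, the check of the genotype, was 242, 279 and 417 in p110g-/- tumors and 487, 616 and 527 in WT tumors (log2 fold change −0.83, SE 0.19, limma adjusted p = 0.0555). In TAM, Pik3cg was 2203, 2211, 1210 and 1401 in p110g-/- and 3745, 4477, 3070 and 2748 in WT (log2 fold change −1.02, limma adjusted p = 0.299, or 0.00557 with the library number as a block). Every p110g-/- library was thus below every WT library of its table, although RNA of the gene remained. The sources used here do not give which stretch of the gene is deleted. Mitochondrial genes took 2.49% to 3.32% of whole tumor libraries, but 9.01% and 14.4% of p110g-/- TAM 3 and 4 and 7.70% and 9.59% of WT TAM 3 and 4. In the sorted cells, the summed macrophage markers, as counts per 1000000 of the library's total (CPM), stood at 4.50 times the whole tumor level in p110g-/- and 5.46 times in WT.

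In whole tumors, 5 of the 6 genes rose in p110g-/- hosts, namely Gzmd, Prf1, Nkg7, Xcl1 and Ifng, and the difference for Gzmb (limma adjusted p = 0.0549) missed the threshold of 0.05. The genes that rose were 1.75 to 3.15 higher on the log2(normalized count + 1) scale, and the median of all 6 was 1.88, against 0.0074 over all genes tested. Of 12717 genes tested, 2.25% rose and 2.1% fell. In all 6 genes every p110g-/- tumor was above every WT tumor, which held for 15.7% of the genes tested. In bulk tissue, more cells of a type and more RNA per cell cannot be told apart.

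The granule proteins come first. Prf1 had 94, 173 and 172 normalized counts in p110g-/- tumors 1, 2 and 3, against 34, 44 and 47 in WT tumors 1, 2 and 3. The lowest p110g-/- tumor thus held about as much again as the highest WT tumor. Prf1 rose by 1.75 on the log2 scale (SE 0.26, 95% interval 1.14 to 2.36, limma adjusted p = 0.0224), at a ratio of means of 3.51.

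Gzmb had 197, 324 and 408 normalized counts in p110g-/- tumors and 75, 122 and 155 in WT tumors. Both genotypes were spread widely, with p110g-/- tumor 1 not far above WT tumor 3. The log2 fold change was 1.39 (SE 0.32, 95% interval 0.64 to 2.14, limma adjusted p = 0.0549), so Gzmb, the best known granzyme, was not called at a ratio of means of 2.64.

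Gzmd had 190, 293 and 290 normalized counts in p110g-/- tumors and 58, 43 and 53 in WT tumors. The groups were far apart, with the WT tumors close together. Gzmd rose by 2.29 on the log2 scale (SE 0.20, limma adjusted p = 0.00743), 5.02 times in means.

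Nkg7 had 117, 125 and 151 normalized counts in p110g-/- tumors and 24, 42 and 43 in WT tumors. Relative to their level, the p110g-/- tumors were closer together than for the other 5 genes. It rose by 1.86 (SE 0.25, limma adjusted p = 0.0147), 3.61 times in means.

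Of the secreted proteins, Xcl1 had 48, 61 and 95 normalized counts in p110g-/- tumors and 10, 25 and 19 in WT tumors. It rose by 1.89 on the log2 scale (SE 0.38, limma adjusted p = 0.0376), 3.78 times in means. Ifng had 33, 45 and 39 normalized counts in p110g-/- tumors, against 2, 2 and 9 in WT tumors. WT tumors 1 and 2 were near the level that 3 reads give, so the WT level of Ifng is poorly fixed. Ifng rose by 3.15 (SE 0.50, 95% interval 2.00 to 4.30, limma adjusted p = 0.0243), at a ratio of means of 9.0. The p110g-/- tumors alone brought it over the minimum for testing, which was 10 normalized counts in at least 3 tumors.

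**Figure D1:**
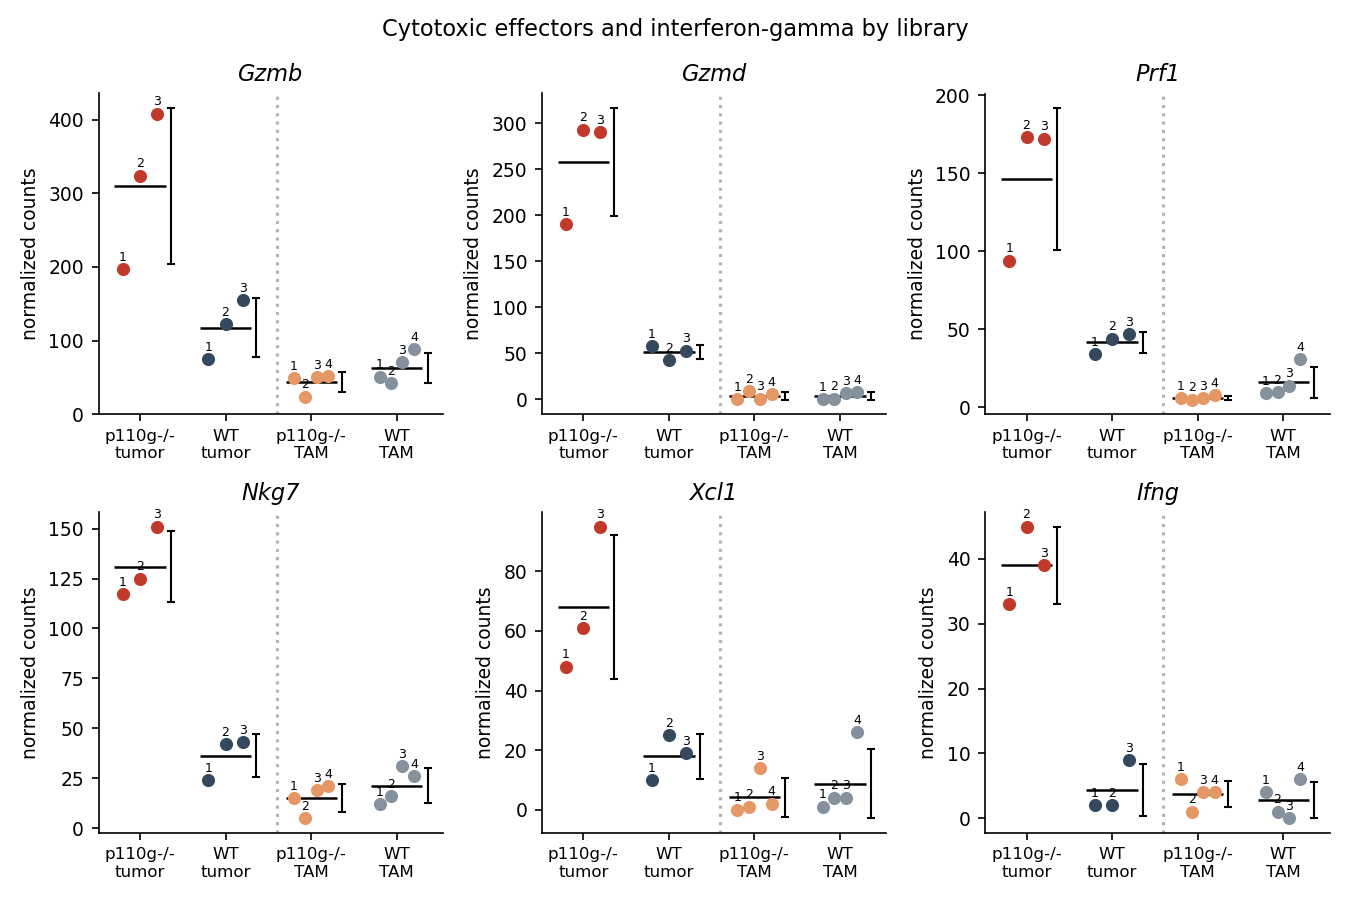
Normalized counts (vertical axis, linear) of Gzmb, Gzmd, Prf1, Nkg7, Xcl1 and Ifng in each numbered library of p110g-/- tumors, WT tumors, p110g-/- TAM and WT TAM, with the group mean (horizontal line) and SD (bar, n = 3 tumors or 4 TAM). In every panel the 3 p110g-/- tumors lie above the 3 WT tumors, and the tables left and right of the dotted line were normalized separately.

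Per kilobase of transcript, which allows levels of different genes to be compared, p110g-/- tumors held 267 ± 60.8 normalized counts of Gzmd, 216 ± 74.0 of Gzmb, 149 ± 20.2 of Nkg7, 130.0 ± 46.4 of Xcl1, 59.2 ± 18.3 of Prf1 and 32.3 ± 4.97 of Ifng (SD, n = 3). WT tumors held 81.7 ± 28 of Gzmb, 53.2 ± 7.92 of Gzmd, 41.2 ± 12.1 of Nkg7, 34.4 ± 14.4 of Xcl1, 16.8 ± 2.75 of Prf1 and 3.59 ± 3.35 of Ifng per kilobase. In p110g-/- tumors Gzmb, Nkg7 and Xcl1 each lay within the SD of the gene before it in that order. Nkg7 was nevertheless more than its own SD below Gzmb. Prf1 and Ifng were lower than their neighbours by more than a SD in both genotypes. Gzmd and Gzmb stood in opposite order in the genotypes, a difference that was not tested. Lengths were those of the longest protein-coding reference transcript of each gene. The levels of Gzmd and Ifng are uncertain, since 33.05% and 15.77% of their stretches of 36 bases also occur in other genes.

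Library p110g-/- tumor 1 was the lowest of the 3 p110g-/- tumors in all 6 genes, which held for 39.1% of the genes tested. It was also lowest in 8 of 9 interferon-gamma targets, 8 of 9 macrophage markers and 5 of 6 other granzymes. The same held for 5 of 7 markers of cross-presenting dendritic cells, 5 of 9 NK cell markers and 4 of 13 T cell markers. It was lowest in only 1 of 6 neutrophil markers, 1 of 5 death ligands and receptors and 1 of 4 granzyme inhibitors. Of 5 mast cell and basophil markers it was lowest in 0. Without p110g-/- tumor 1, the calls changed as follows. Gzmb was called as well (log2 fold change 1.69, limma adjusted p = 0.0182), and 2001 genes were called in place of 553. Leaving out any other tumor lowered the calls over all genes to between 29 (without p110g-/- tumor 2) and 155 (without WT tumor 3).

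Gzmd was called under each of these omissions. Prf1 lost its call without p110g-/- tumor 2 (limma adjusted p = 0.0915), p110g-/- tumor 3 (0.0753), WT tumor 1 (0.0645) or WT tumor 2 (0.0848), at log2 fold changes of 1.6 to 1.79. Nkg7 lost it without p110g-/- tumor 2 (0.0742), p110g-/- tumor 3 (0.0608) or WT tumor 2 (0.0512), at 1.75 to 1.98. For Ifng it was lost without p110g-/- tumor 2 (0.0967), p110g-/- tumor 3 (0.083), WT tumor 1 (0.0677) or WT tumor 2 (0.0895), at 2.86 to 3.14. Xcl1 lost it without any tumor other than p110g-/- tumor 1 (adjusted p 0.0864 to 0.119).

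Of the 6 other granzymes tested, 4 rose (list median 1.95), and all 4, Gzmc, Gzme, Gzmf and Gzmg, lie in the chromosome 14 cluster. Gzma and Gzmm, which lie elsewhere, did not pass the test. Gzmc had 351, 792 and 1068 normalized counts in p110g-/- tumors and 138, 181 and 175 in WT tumors (log2 fold change 2.02, limma adjusted p = 0.0293), and was the highest of the granzymes. The call of Gzmc was lost with limma voom (adjusted p = 0.068), which called 3 of the 6, and without any tumor other than p110g-/- tumor 1 (adjusted p 0.0776 to 0.112). Gzmf, with 216, 345 and 284 in p110g-/- and 71, 53 and 41 in WT tumors, rose by 2.35 (limma adjusted p = 0.00743). Gzmg rose by 2.43 (limma adjusted p = 0.0094) and Gzme by 1.88 (limma adjusted p = 0.0187). Gzmg lost its call without p110g-/- tumor 2 or 3 or WT tumor 2, and Gzme without these or WT tumor 1.

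Since reads may be split among Gzmd, Gzme, Gzmf and Gzmg, their summed values bear on the group as a whole. The sum was 658, 1019 and 941 normalized counts in p110g-/- tumors and 222, 162 and 146 in WT tumors, which do not overlap. The ratio of geometric means was 4.94 (exact two-sided permutation p = 0.1, the smallest that 3 against 3 allows). With Gzmb and Gzmc added, the sum was 1206, 2135 and 2417 in p110g-/- tumors, against 435, 465 and 476 in WT tumors, a ratio of 4.01.

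Gzma, the tryptase granzyme that resting NK cells hold, lies on chromosome 13. It had 43, 47 and 78 normalized counts in p110g-/- tumors and 53, 64 and 116 in WT tumors (log2 fold change −0.43, 95% interval −1.21 to 0.34, limma adjusted p = 0.446). The genotypes overlapped. Gzmm had 15, 20 and 13 in p110g-/- and 15, 14 and 15 in WT tumors, and Gzmk was at 0 to 3 in both genotypes and was not tested.

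**Figure D2:**
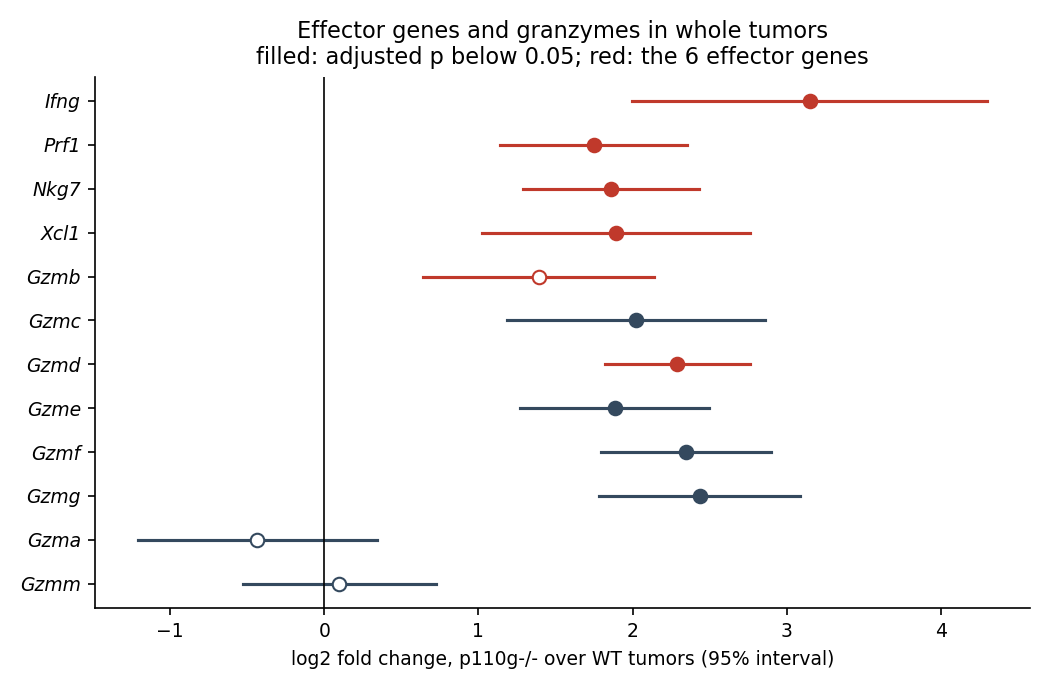
Log2 fold change of p110g-/- over WT whole tumors (horizontal axis) for the 6 effector genes (red) and the other granzymes tested (blue), with 95% intervals from limma; filled points have an adjusted p below 0.05. Cluster genes Gzmc to Gzmg lie between 1.88 and 2.43. Gzma lies at −0.43 with an interval that spans 0, and Gzmm lies near 0.

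Other steps of the granule pathway were nearer to level. Of 10 genes for granule loading and release, 2 rose, with a list median of 0.17. They were Cst7 (log2 fold change 1.46, limma adjusted p = 0.0373), which encodes the cathepsin inhibitor cystatin F, and Ctsw (1.48, limma adjusted p = 0.0498), which encodes cathepsin W of killer cells. Ctsw had 84, 129 and 152 normalized counts in p110g-/- and 31, 35 and 67 in WT tumors, without overlap. Ctsw stood at the threshold, and its call was lost with a pseudocount of 0.5 (adjusted p = 0.0501), a minimum of 20 (0.0504), upper quartile scaling (0.052), limma voom (0.0529), a constant prior (0.0925) or a fit of all 4 groups (0.568). It was also lost without p110g-/- tumor 2 or 3 or WT tumor 1 or 2 (adjusted p 0.14 to 0.154). Ctsc, whose product activates granzymes, and Srgn, the granule proteoglycan, are abundant in myeloid cells and did not pass (Ctsc 0.59, limma adjusted p = 0.116; Srgn −0.17, limma adjusted p = 0.528).

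Of 4 granzyme inhibitors, Serpinb9, which shields cells from granzyme B, rose by 0.48 (limma adjusted p = 0.0227), with 920, 1024 and 1082 normalized counts in p110g-/- tumors and 692, 744 and 724 in WT tumors. Of 5 death ligands and receptors tested, Tnfsf10, which encodes the death ligand TRAIL, rose by 1.56 (limma adjusted p = 0.0293). It had 74, 118 and 131 normalized counts in p110g-/- tumors and 26, 38 and 43 in WT tumors. Limma voom called 2 of the 5.

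Targets of interferon-gamma rose with its gene. Of 9 tested, 7 rose and none fell, with a median of 1.2 on the log2 scale. Cxcl9, a CXCR3 chemokine, had 1299, 2259 and 2828 normalized counts in p110g-/- tumors and 95, 196 and 336 in WT tumors (log2 fold change 3.45, limma adjusted p = 0.0142). The lowest p110g-/- tumor was well above the highest WT tumor. Iigp1, an immunity-related GTPase, rose by 2.89 (limma adjusted p = 0.00743), Gbp2, a guanylate-binding protein, by 2.13 (limma adjusted p = 0.00743), and Cxcl10 by 1.36 (limma adjusted p = 0.0286). Several of these genes also respond to type I interferon.

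The receptor chains themselves were little different. Ifngr1 averaged 3128 ± 205 normalized counts in p110g-/- tumors and 3567 ± 309.6 in WT tumors, and Ifngr2 averaged 1741 ± 143 in p110g-/- tumors and 1509 ± 92.8 in WT tumors (SD, n = 3 each), and neither passed the test.

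Of 14 genes that induce interferon-gamma or receive such signals, 3 rose. These were receptor chains, namely Il2rb, shared by the IL-2 and IL-15 receptors (1.70, limma adjusted p = 0.0397), Il18r1 (1.33, limma adjusted p = 0.0369) and Il15ra (0.62, limma adjusted p = 0.02). Of 8 transcription factors of effector cells, none was called by limma, although 6 had an unadjusted p below 0.05, and limma voom also called 0. Tbx21, which encodes T-bet, had 18, 35 and 31 normalized counts in p110g-/- tumors and 3, 9 and 12 in WT tumors (1.80, limma adjusted p = 0.0744). Eomes had 18, 32 and 56 in p110g-/- tumors and 14, 9 and 18 in WT tumors (1.22, limma adjusted p = 0.134).

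Of 9 activation and checkpoint receptors, 2 rose. Pdcd1, which encodes PD-1, had 66, 43 and 62 normalized counts in p110g-/- tumors and 4, 10 and 20 in WT tumors (2.44, limma adjusted p = 0.0392). Lag3 rose by 1.5 (limma adjusted p = 0.0227). Of the 7 markers of XCL1-responsive cross-presenting dendritic cells, none was called and none had an unadjusted p below 0.05 in limma, and limma voom called 0. Xcr1, the receptor of XCL1, had 20, 21 and 14 normalized counts in p110g-/- tumors and 17, 14 and 14 in WT tumors.

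RNA of the lymphocytes that make these proteins moved in the same direction. Of 13 T cell markers, 13 were higher and 6 rose (median 1.32), and of 9 NK cell markers, 9 were higher and 2 rose (median 1.15). Cd8a had 92, 67 and 73 normalized counts in p110g-/- tumors and 9, 8 and 16 in WT tumors (2.75, limma adjusted p = 0.00823). Klrc1, an NK receptor chain also found on CD8 T cells, rose by 2.20 (limma adjusted p = 0.0126). The summed T cell markers ranged from 1222 to 1659 normalized counts in p110g-/- tumors and from 537 to 996 in WT tumors, and the NK cell markers from 848 to 1428 in p110g-/- and from 374 to 620 in WT tumors. No marker of these lists was at 0 in all tumors.

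Markers of other cell types differed among themselves. Macrophage markers had a median of 0.080 with 0 of 9 called by limma or limma voom and 0 with an unadjusted p below 0.05, and fibroblast markers a median of 0.029 with 0 of 6 called. Markers of 4 further cell types stood higher in p110g-/- tumors. Mast cell and basophil markers had a median of 0.70, with 5 of 5 higher, and Kit, the stem cell factor receptor of mast cells, rose by 0.85 (limma adjusted p = 0.0488), although limma voom called 0 of the 5. Neutrophil markers had a median of 0.69 with 5 of 6 higher, and endothelial markers a median of 0.60 with 4 of 4 higher. In each of these lists limma called 0, limma voom called 0, and 3 genes had an unadjusted p below 0.05. Plasmacytoid dendritic cell markers had a median of 0.49 with 4 of 4 higher and 0 called by limma or limma voom, 1 of them at an unadjusted p below 0.05. The summed endothelial markers were 1203 to 1402 normalized counts in p110g-/- tumors and 667 to 1118 in WT tumors, without overlap, while the sums of the mast cell, neutrophil and plasmacytoid dendritic cell markers overlapped between genotypes. Krt8 and Krt18, keratins of the carcinoma cells, fell by 0.63 and 0.45 on the log2 scale (limma adjusted p = 0.00818 and 0.0164). The summed carcinoma markers were 9261 to 10625 normalized counts in p110g-/- tumors and 13954 to 15071 in WT tumors. The part of these cell proportions in the differences of the effector genes was not tested beyond the ratios given next. Of 37 listed genes called in whole tumors, 37 were still called without p110g-/- tumor 1, 29 without WT tumor 3, 15 without WT tumor 1, 10 without p110g-/- tumor 3, and 5 without either p110g-/- tumor 2 or WT tumor 2. Gbp2, Gzmd, Gzmf and Iigp1 were called under every one of these omissions.

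**Figure D3:**
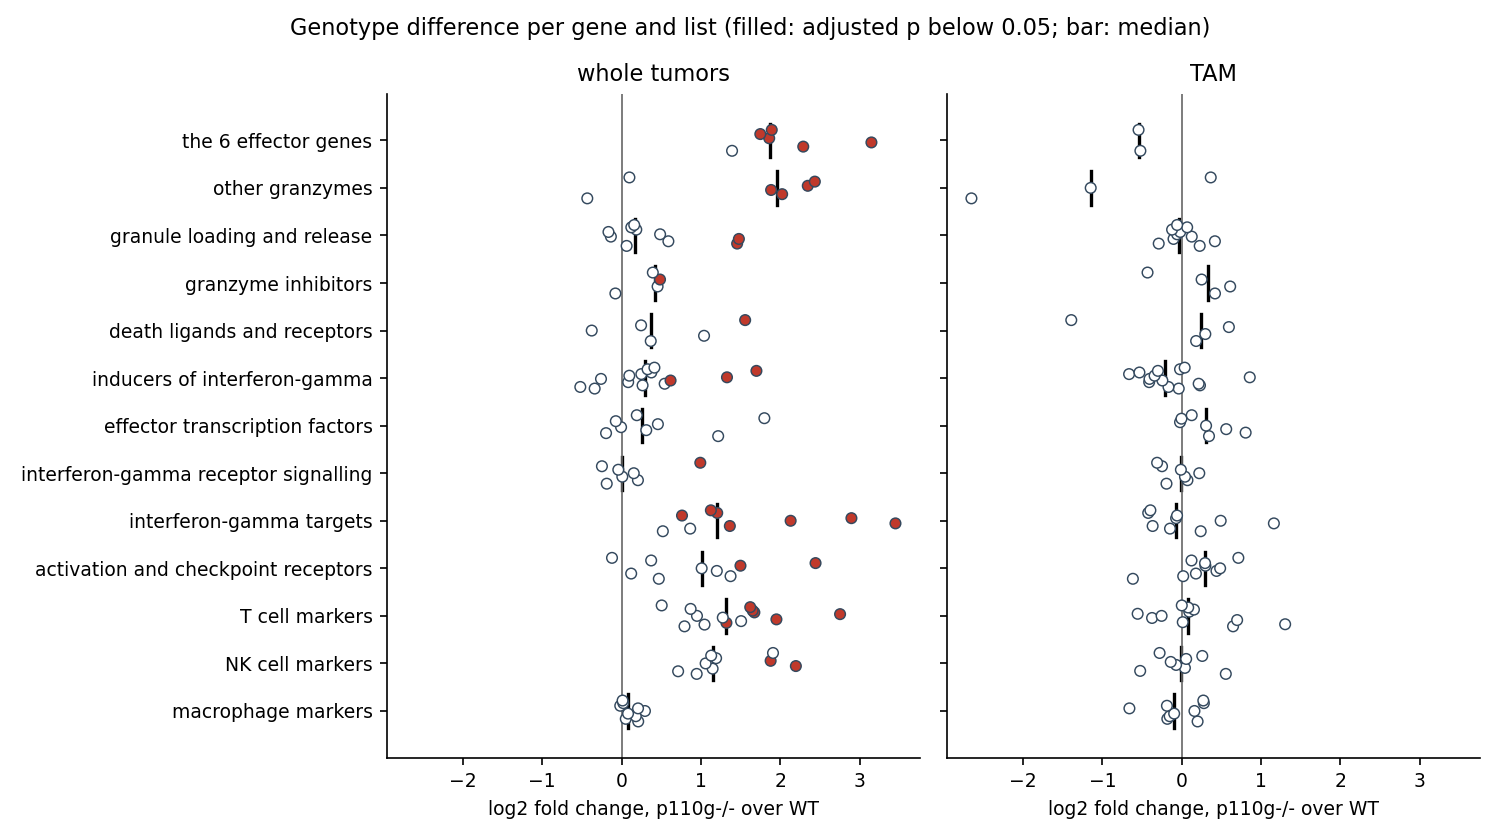
Log2 fold change of p110g-/- over WT (horizontal axis) for each tested gene of 13 groups, in whole tumors (left) and TAM (right); filled points have a limma adjusted p below 0.05 and bars are group medians. Whole tumor medians were 1.88 for the 6 effector genes, 1.2 for interferon-gamma targets, 1.32 for T cell and 1.15 for NK cell markers, and no point in TAM is filled.

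To set the effector genes against lymphocyte RNA, each was divided by the mean of the 13 T cell markers or of the 9 NK cell markers in the same library. Per T cell marker RNA, Ifng was 2.19 higher in p110g-/- tumors on the log2 scale, Gzmd 1.34 and Nkg7 0.91, with no overlap between genotypes (exact two-sided permutation p = 0.1 each, the smallest possible). Xcl1 was 0.94 higher and Prf1 0.79 higher with overlapping groups (exact p = 0.2 each), and Gzmb 0.44 higher (exact p = 0.4). Per NK cell marker RNA the differences were 2.05 for Ifng, 1.19 for Gzmd, 0.80 for Xcl1, 0.77 for Nkg7 and 0.65 for Prf1 (exact p = 0.1 each), and 0.30 for Gzmb (exact p = 0.3).

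Over the 24 such comparisons in both tables, the lowest adjusted p was 0.267, so none passed. The Gzmb ratio depended on the markers used. It was −0.11 per Cd3e, −0.027 per T cell markers without Thy1, which other tumor cells may also carry, and −0.21 per NK cell markers without Cd244, Klrd1 and Klrk1. For the other 5 genes p110g-/- tumors were higher under each of these marker choices, but by less. Per Cd3e the difference was 1.64 for Ifng (exact permutation p = 0.1), 0.78 for Gzmd (0.2), 0.39 for Xcl1, 0.35 for Nkg7 and 0.24 for Prf1 (0.5 each). Per NK cell markers without Cd244, Klrd1 and Klrk1 it was 1.54 for Ifng (exact permutation p = 0.1), 0.68 for Gzmd (0.2), 0.29 for Xcl1 (0.4), 0.25 for Nkg7 (0.3) and 0.14 for Prf1 (0.6).

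**Figure D4:**
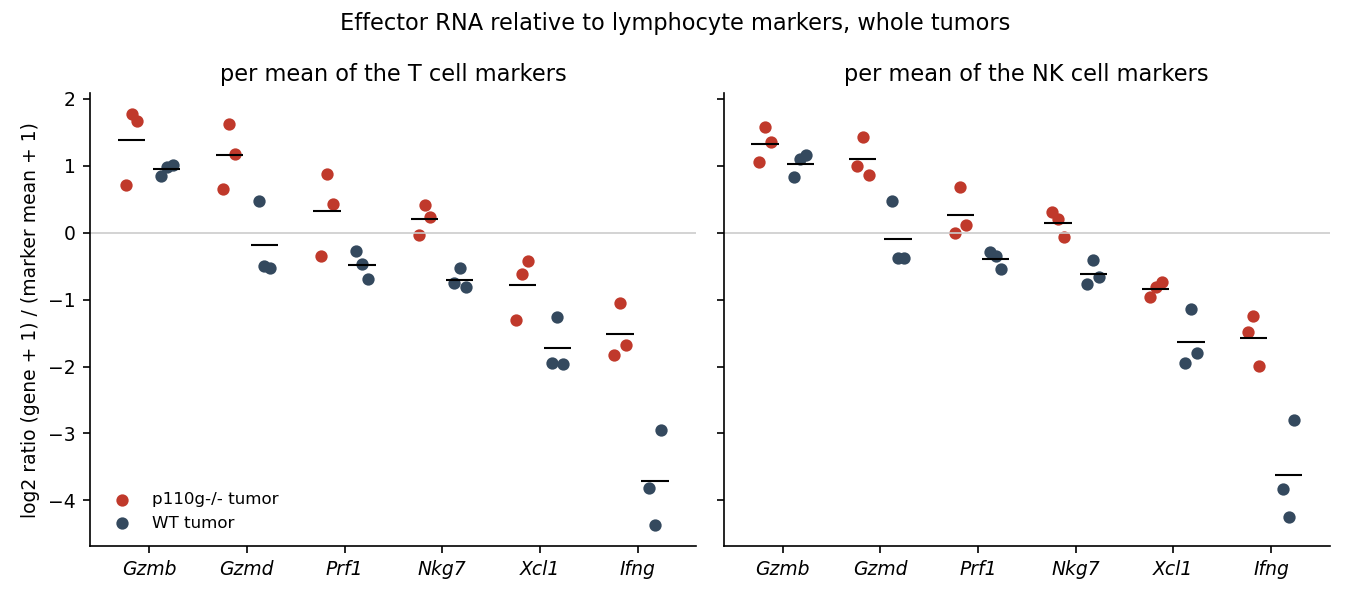
Log2 ratio of each effector gene to the mean of the T cell markers (left) or NK cell markers (right) in the same whole tumor library, p110g-/- (red) beside WT (blue), with group means as lines (n = 3 each). Ifng stands furthest apart, by 2.19 and 2.05, and the Gzmb values overlap in both panels.

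In the sorted TAM the effector genes were low. Together they made up 2.19 CPM in p110g-/- TAM and 3.43 CPM in WT TAM, against 36 CPM in p110g-/- whole tumors and 9.82 CPM in WT whole tumors. The level in TAM was thus 0.0608 of that in whole tumors for p110g-/- and 0.350 for WT, a description, since the tables were normalized separately. T cell markers stood at 0.164 of the whole tumor level in p110g-/- and 0.299 in WT. NK cell markers stood at 1.45 times the whole tumor level in p110g-/- and 3.88 times in WT. Among them, Cd244, Klrd1 and Klrk1 were abundant in TAM, with 585 to 2141, 134 to 508 and 223 to 672 normalized counts in p110g-/- TAM. Klri2 also stood above its whole tumor level, 1.62 times in p110g-/- and 3.26 times in WT. The other NK cell markers stood below theirs. The defining NK receptor Ncr1 was at 2, 1, 4 and 6 in p110g-/- TAM and 4, 4, 14 and 13 in WT TAM.

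**Figure D5:**
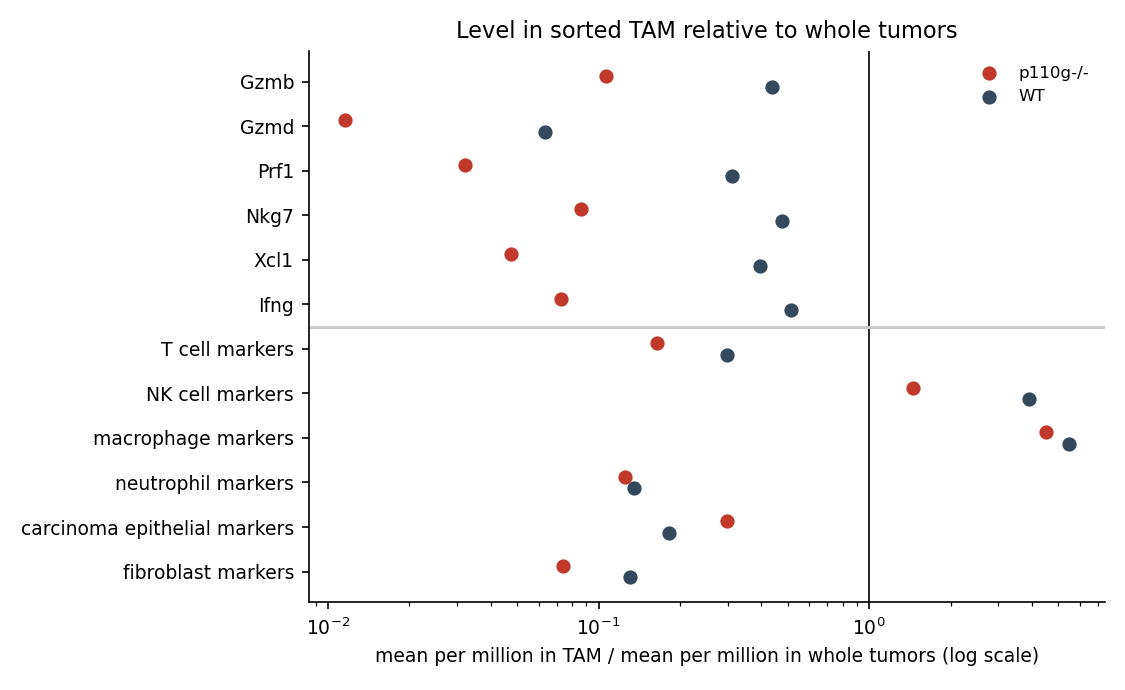
Mean CPM in TAM divided by that in whole tumors (horizontal axis, log scale), for p110g-/- (red) and WT (blue), for each effector gene and for summed marker lists below the line. All effector genes lie below 1, from 0.0115 for Gzmd to 0.106 for Gzmb in p110g-/- and from 0.0635 for Gzmd to 0.512 for Ifng in WT.

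Only Gzmb and Nkg7 were high enough in TAM to be tested, and neither was called. The background was 0.0721% of 12475 genes called higher and 0.0401% called lower, so few genes of any kind were called. Neither gene had an unadjusted p below 0.05 in limma, and limma voom called 0 of the 2. Gzmb had 49, 24, 50 and 52 normalized counts in p110g-/- TAM 1 to 4, against 51, 42, 71 and 88 in WT TAM 1 to 4. The ranges overlapped. Gzmb was lower in p110g-/- in all 4 same-numbered pairs, though barely in the first (49 against 51). How many of all genes have this order was not computed. The log2 fold change was −0.52 (95% interval −1.34 to 0.30, limma adjusted p = 0.999), and with the number as a block Gzmb had an unadjusted limma p of 0.0435 and an adjusted p of 0.25. Nkg7 had 15, 5, 19 and 21 in p110g-/- TAM and 12, 16, 31 and 26 in WT TAM (−0.54, 95% interval −1.78 to 0.69, limma adjusted p = 0.999).

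The other 4 genes were below the minimum for testing in TAM. Prf1 had 6, 5, 6 and 8 normalized counts in p110g-/- TAM and 9, 10, 14 and 31 in WT TAM. Every p110g-/- value was below every WT value, as in 1.89% of all genes of the table, but the p110g-/- values correspond to an estimated 4.13 to 7.21 reads each. Gzmd had 0, 9, 1 and 6 in p110g-/- and 0, 1, 7 and 8 in WT TAM. Xcl1 had 0, 1, 14 and 2 in p110g-/- and 1, 4, 4 and 26 in WT TAM, and Ifng had 6, 1, 4 and 4 in p110g-/- and 4, 1, 0 and 6 in WT TAM. Differences between genotypes in Gzmd, Xcl1 and Ifng were not detectable at this depth.

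Relative to T cell markers, Prf1 was 1.23 lower in p110g-/- TAM on the log2 scale (exact two-sided permutation p = 0.0286, the smallest that 4 against 4 allows, and 0.267 adjusted over the 24 ratios), lower in 4 of 4 p110g-/- libraries than in any WT library. Per Cd3e it was 0.83 lower (exact p = 0.314), and without WT TAM 2 or WT TAM 4 the exact p was 0.0571. No other ratio in TAM reached an exact p of 0.05. Of the other granzymes, Gzma had 11, 1, 7 and 2 normalized counts in p110g-/- TAM and 25, 11, 46 and 60 in WT TAM (log2 fold change −2.65, limma adjusted p = 0.46, or 0.0616 with the number block). Gzmc had 3, 2, 20 and 35 in p110g-/- TAM and 4, 14, 50 and 56 in WT TAM. The ranges overlapped and p110g-/- was lower in all 4 same-numbered pairs (log2 fold change −1.15, limma adjusted p = 0.204 with the number block). The share of all genes in this order was not computed. Summed fibroblast markers were lower in the same pairs, at 661, 8590, 41138 and 29871 in p110g-/- TAM and 2538, 25909, 47384 and 52862 in WT TAM. Of these 6 markers 6 were lower and 0 were called by limma. Whether other tumor tissue among the sorted cells bears on the granzyme values was not tested.

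Of all 128 listed genes tested in TAM, 0 were called by limma and 0 by limma voom, and 13 had an unadjusted p below 0.05. With same-numbered libraries as a block, 6 were called, beside a background of 1.01% higher and 1.49% lower. They included Tnfsf10 (−1.39, adjusted p = 0.0144), with 92, 51, 34 and 39 normalized counts in p110g-/- TAM and 187, 153, 87 and 125 in WT TAM, and Cxcl9 (1.16, adjusted p = 0.0149), with 7753, 6381, 3806 and 4340 in p110g-/- and 2810, 2397, 1630 and 2973 in WT TAM. Among the 9 interferon-gamma targets the block called Cxcl9 higher and Tap1, the peptide transporter of antigen presentation, lower (−0.40, adjusted p = 0.0388), with 6 of 9 below 0 and a median of −0.071. Cxcl9 was thus higher in all 4 p110g-/- TAM libraries, and Tnfsf10 lower in same-numbered pairs. The shares of all genes in these orders are not given here.

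The genotype differences in TAM were also set against those in whole tumors, by subtracting the log2 fold change in tumors from that in TAM in a fit of all 14 libraries. The difference was −1.91 for Gzmb (SE 0.53, limma adjusted p = 0.303) and −2.40 for Nkg7 (SE 0.64, limma adjusted p = 0.28), and 0.105% of 12396 genes were called lower. With the library numbers as a block in both tables, both genes were called (adjusted p = 0.00362 for Gzmb and 0.0284 for Nkg7), as were 2.21% of genes in that direction. With the block in the TAM table alone, chosen after seeing the data, the adjusted p was 0.0346 for Gzmb and 0.0179 for Nkg7, beside a background of 2.42%. Same-numbered TAM libraries varied together (correlations of 0.472 to 0.847), but those numbered 3 and 4 correlated as well across numbers. Same-numbered whole tumors correlated at 0.0763 to 0.178. The labels do not say what a number marks.

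Prf1 could be compared this way only without the minimum. It was higher in every p110g-/- tumor than in any WT tumor and lower in every p110g-/- TAM library than in any WT TAM library, as were 0.224% of all genes. Its difference of −2.83 (SE 0.55) had a limma adjusted p of 0.0807. Among interferon-gamma targets, the difference was below 0 for 9 of 9 and was called for Iigp1 (−2.97, limma adjusted p = 0.0267). That call was lost with limma voom, which called 0 of the 9 (adjusted p = 0.0619 for Iigp1). It was also lost without p110g-/- tumor 2 or 3, WT tumor 1 or 2, p110g-/- TAM 3 or 4, or WT TAM 2 or 4 (adjusted p 0.055 to 0.0968). Iigp1 had 860, 1432 and 1570 normalized counts in p110g-/- tumors and 133, 161 and 216 in WT tumors, while p110g-/- TAM had 1829, 1121, 851 and 891 and WT TAM 1427, 1190, 841 and 1326.

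For each effector gene, the 3 tested genes with the most similar log2 values over the 6 whole tumor libraries are named as a description, with Pearson's r between 0.994 and 0.998. The nearest to Gzmb were Clcn1, Ikbke and Gltscr1l. Gzmd was followed most closely by Irgm1, Apol6 and Klhl42, and Prf1 by Angptl7, Gbp7 and Mga. Nkg7 had Inpp5j, Klrc1 and Cd27, and Xcl1 had Snx11, Pirb and Cln8. The values of Ifng were followed by Il18bp, which encodes the interleukin-18 binding protein, Lag3 and Fbxo42. Il18bp had 119, 161 and 148 normalized counts in p110g-/- tumors and 41, 38 and 68 in WT tumors. The points share the genotype difference, and 6 libraries set a low bar for such likeness.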

How the data were processed

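RNA was measured in whole tumors (3 p110g-/- and 3 WT libraries) and sorted TAM (4 and 4). The submitters' processing notes name Bowtie2, DESeq and build mm9, without versions, and no source used here gives the counter or annotation. The authors deposited a score per gene and library, whole-number normalized counts scaled per library and rounded, as read from the values. Each deposited table also has a column headed pp, of unknown meaning, not used here. The depth was estimated from the size of the steps between values.

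Genotypes were compared within each table with limma 3.58.1 (R 4.3.3), two-sided, on log2(normalized count + 1), which understates changes at low levels. Testing required that at least 3 tumor or 4 TAM libraries reached 10, p-values were adjusted over all genes by the Benjamini-Hochberg method, and a gene rose or fell (was called) when the adjusted p was below 0.05. The fit was tested on simulated data. Ratios to markers were compared by exact permutation. Scaling (upper quartile, or a trimmed mean of M values computed directly), pseudocount, minimum, prior, weights, block and single libraries were varied.

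Named genes were the 6 effector genes, Pik3cg, at most 4 called genes of each list by fold change, or the 2 with the largest change where none was called, 2 abundant uncalled ones, and the 3 most similar genes. Xcr1, Ncr1, Ifngr1, Ifngr2, Cd244, Klrd1, Klrk1, Klri2 and Tap1 were named besides, with values known. The genes and lists were chosen with earlier results of these data known. Of 160 list genes, 144 were in the tables. The result for 1 listed gene is not reported here.

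After subtraction of group means, TAM libraries of the same number correlated at 0.847, 0.472, 0.808 and 0.702. Libraries 3 and 4 also correlated across numbers, at 0.777 for p110g-/- TAM 3 with WT TAM 4. For p110g-/- TAM 4 with WT TAM 3 the value was 0.704. Same-numbered TAM libraries thus varied together, but the pairs numbered 3 and 4 could not be told apart. A block value is printed with TAM results whose call it alters. RefSeq and GENCODE sequences come from GRCm38.p6, another build than the authors', and were matched by identifier and symbol for all 6 genes.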

Additional observations from a re-analysis of the deposited data

Results flagged for a closer look

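In p110g-/- TAM, Gzmb had 24 normalized counts in library 2, far below the other 3 libraries (49 to 52). Xcl1 had 14 in p110g-/- TAM library 3, where the others had 0 to 2, and 26 in WT TAM library 4, where the others had 1 to 4. The rule was a gap above 0.829 of the range, tried on each of the 6 genes in p110g-/- and in WT TAM. For normally distributed values, chance alone sets apart about 1 in 20 such groups. Low counts, as those of Xcl1, need not follow that rate. Prf1 was lower in all p110g-/- TAM libraries and higher in all p110g-/- tumors than in any WT library of the same kind, as were 0.224% of all genes. Its p110g-/- TAM values were only an estimated 4.13 to 7.21 reads each. The effect in TAM minus that in tumors was −2.83 on the log2 scale, with a limma adjusted p of 0.0807 in the fit without a minimum.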

How the results depend on the processing

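All fold changes of the 6 effector genes in whole tumors stayed positive under every alternative. Pseudocounts of 0.5 and 2, minima, both other scalings and limma voom changed no call among them. A constant prior ended the calls of Prf1 (1.75, adjusted p = 0.0515), Xcl1 (1.89, adjusted p = 0.0714) and Ifng (3.15, adjusted p = 0.0515), and a fit of all 4 groups ended those of Gzmd (2.29), Prf1 (1.75), Nkg7 (1.86), Xcl1 (1.89) and Ifng (3.15); the cause was not tested. Gzmb was called with sample quality weights (1.49) and without both libraries numbered 1 (1.40), an alternative chosen after seeing the data. Leaving out each tumor gave 1.10 to 1.69 for Gzmb, 1.6 to 2.04 for Prf1, 1.59 to 2.00 for Nkg7, 1.54 to 2.16 for Xcl1 and 2.86 to 3.73 for Ifng.

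In whole tumors, 553 genes were called, 131 with a constant prior, 2308 with weights, 15 in the fit of all 4 groups, 1037 without both libraries numbered 1 and 29 to 2001 with each tumor left out. In TAM, 14 were called, 999 with weights, 88 in the fit of all 4 groups, 8 with voom and 3 to 40 with each library left out. For the difference of effects, 18 were called, 1249 with weights, 2 with voom and 0 to 101 with each library left out; weights gave −2.05 for Gzmb and −2.42 for Nkg7, both called.

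With the library number as a block, TAM calls numbered 312 and calls of the difference 327, or 404 with the block in TAM alone, with Gzmb (−1.91) and Nkg7 (−2.40) called in both. The whole tumors share only a number. Same-numbered tumors correlated at 0.0947, 0.0763 and 0.178, and p110g-/- tumor 2 correlated best with WT tumor 1 (0.131). The block there called 759 genes, Gzmb among them (1.39, adjusted p = 0.00541). It changed no other call of the 6 genes.

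Ratios near 0 changed sign. In tumors, Gzmb was −0.11 per Cd3e, −0.027 without Thy1 and −0.21 without Cd244, Klrd1 and Klrk1. In TAM, Gzmd was 0.23 per Cd3e and −0.19 without Cd244, Klrd1 and Klrk1. With each TAM library left out, ratios to T cell markers ranged from −0.83 to 0.24 for Gzmd and −0.16 to 0.82 for Ifng, and to NK cell markers from −0.46 to 0.039 for Gzmb, −0.39 to 1.22 for Gzmd, −0.56 to 0.15 for Nkg7 and −1.60 to 0.20 for Xcl1. Gzmm in tumors ranged from −0.065 to 0.23 with each tumor left out. Depth limits Gzmd, Prf1, Xcl1 and Ifng in TAM and Ifng in WT tumors.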
